A study of Mus musculus with 18 samples.

Results

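Potassium channel genes of pancreatic islets are described here in mice with and without an islet amyloid polypeptide (IAPP) transgene. The group was defined by name: the rows of the count table whose gene symbol starts with Kcn, apart from 4 such rows that the definition left out. That gave 95 of 54186 rows. Of these, 93 encode channel subunits or regulators, and the other 2, Kcnmb4os1 and Kcnmb4os2, are antisense transcripts at Kcnmb4. The choice used names only and no measured value. By structure, the 95 were 40 pore subunits of voltage-gated channels, 17 accessory subunits and regulators, 14 inward rectifiers, 14 tandem-pore channels, 8 pore subunits of calcium-activated or sodium-activated channels or their close relatives, and the 2 antisense transcripts.

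Bulk RNA was sequenced from islets of 18 mice, all FVB and 6 weeks old, with 1 library per mouse and 6 mice per genotype. WT mice carried no transgene. The hIAPP mice expressed human IAPP and the rIAPP mice rodent IAPP, in both cases in beta cells from the insulin II promoter, so that the transgene was directed to 1 islet cell type while the RNA came from whole islets. Each library came from about 165 islets. Library totals ran from 109596508 to 166233419 estimated counts. Levels are given in CPM, the usual per-library scaling of counts.

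Potassium channels let potassium leave the cell and so draw the membrane voltage down. In beta cells, ATP-sensitive channels hold the resting cell silent, and their closure by glucose metabolism starts electrical activity. Voltage-gated and calcium-activated channels then end each action potential, tandem-pore channels carry a background leak, and G protein-gated inward rectifiers pass on the braking effect of hormones and transmitters. Silent voltage-gated subunits make no channel alone and join others, and accessory subunits set where and how fast a channel opens.

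The libraries held markers of beta, alpha, delta and PP cells, and markers of beta cells and of several other cell types differed between genotypes. The 10 beta cell markers summed to 100613 to 118498 CPM in WT, 44929 to 96955 in hIAPP and 41162 to 63697 in rIAPP, with 6 of 10 lower in hIAPP and 9 of 10 lower in rIAPP than in WT. The 20 acinar markers, genes of the enzyme-secreting exocrine cells, summed to 869 to 3567 CPM in WT, 2285 to 15131 in hIAPP and 3875 to 16796 in rIAPP, with 18 and 20 of 20 higher than in WT. Macrophage markers were higher in hIAPP (12 of 13, with a median sum of 499.9 CPM against 154 in WT), and 7 of 13 were lower in rIAPP (103 CPM). Endothelial markers were higher in rIAPP (12 of 12, 938 to 1053 CPM against 739 to 831 in WT). Markers of pericytes and other mesenchymal cells were higher in both (9 of 12 in hIAPP, 1131 to 2019 CPM; 7 of 12 in rIAPP, 1423 to 2290.2 CPM; 839.9 to 1177 CPM in WT). Glial markers were higher in 6 of 8 cases in hIAPP and 3 of 8 in rIAPP. No marker of these lists was at 0 in all libraries of a genotype. The libraries hIAPP 5 and hIAPP 6 had the highest acinar scores (mean log2 CPM of the list) of the hIAPP libraries, 7.22 and 7.98 against 5.35 to 6.92 in the other 4, and some results are also given without them. In bulk RNA, fewer cells of a type and less RNA per cell cannot be told apart.

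Of the 95 members, 75 passed the filter on low counts and were tested, and the 20 others never exceeded 0.203 CPM in any library. In WT, 53 members averaged at least 1 CPM and 17 at least 10 CPM. Summed over the 95 members, the level was 872 to 939 CPM in WT, 865 to 985 in hIAPP and 1002 to 1125 in rIAPP, so that all rIAPP libraries lay above all WT libraries and all hIAPP libraries.

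The members with the strongest signal in WT islets were compared per kilobase (kb) of exon, since longer transcripts give more counts. The length holds all annotated exons of a gene, used in islets or not, so the order depends on the annotation. Kcnk16, the alkaline-activated tandem-pore channel of beta cells, stood first at 79.8 ± 3.31 CPM per kb (SD, n = 6), and Kcnmb2, the inactivating accessory subunit of large-conductance calcium-activated channels, second at 41.7 ± 7.46. Both lay apart from the next gene in every WT library. Kcnh2, an ERG-type voltage-gated channel, followed at 11.2 ± 0.823, then Kcnk1, a weakly conducting tandem-pore channel, at 9.69 ± 0.447, Kcnip1, a calcium-sensing accessory subunit, at 7.59 ± 1.25, and Kcnh6, a second ERG-type channel, at 7.18 ± 1.05. From Kcnh2 to Kcnh6 each gene overlapped the next in its WT range, so that the order of adjacent genes was not resolved. All Kcnh2 values lay above those of Kcnip1 and Kcnh6, and all Kcnk1 values above those of Kcnh6. Kcnma1, the pore of the large-conductance calcium-activated channel, was at 4.59 ± 0.287 CPM per kb, and its overlap with Kcnab3 above it (4.84 ± 0.630) and Kcnj12 below it (4.12 ± 0.461) left those 3 unordered as well. Its exon length was 16976 bases. In CPM not divided by length, the WT mean of Kcnma1 was 77.9, above that of Kcnh2 at 54.2.

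**Figure D1:**
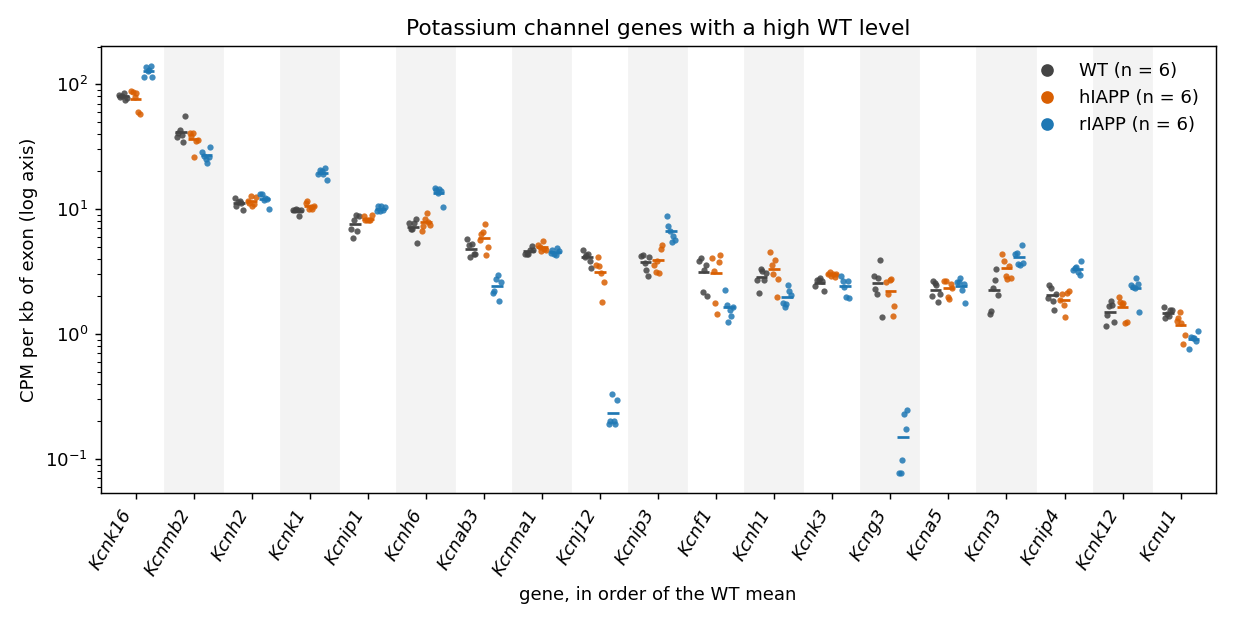
Levels in CPM per kb of exon (log axis) of members with a high WT mean, for 6 WT, 6 hIAPP and 6 rIAPP libraries; points are libraries and short lines are means. Kcnk16 was highest in each genotype, and the rIAPP points of Kcnj12 lay far below those of WT and hIAPP.

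The comparison of rIAPP with WT islets asked how the line with a transgene for the rodent peptide differs from WT. Of the 75 members tested, 44 were called at an adjusted p under 0.05, 29 higher and 15 lower, which is 58.7% beside 26.8% of all 20244 genes tested (14.1% higher and 12.6% lower). The median log2 fold change of the members was 0.22, beside -0.015 over all genes. The members tested include those that passed the filter through 1 genotype, so the share is a description. With the acinar score as a covariate, 21 members were called, 13 higher and 8 lower. The score was 4.21 to 6.05 in WT and 6.24 to 8.19 in rIAPP libraries, without overlap. Genotype and score can therefore hardly be told apart in this comparison. Among the calls that ended with the score, some values were nearer to 0 (Kcnk9, -1.38 without it and -0.58 with it). Others were not nearer to 0 (Kcnf1, -0.94 and -1.10). The part of a larger error in the ended calls was not tested. Changes of 2-fold or more were called in 17 members, 10 higher and 7 lower. The shares of all genes with this covariate or at this fold cut are not given here, so these counts are descriptions.

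The promoters of the 4 members with the greatest fold changes in rIAPP, a pair that fell and a pair that rose, are shown from RefSeq (GRCm38.p6), from 250 bases before to 50 after the start in that table, read 5′ to 3′ on the gene's strand. For Kcng3 and Kcnj3 this start is also the outer start of the gene in GENCODE, for Kcnc4 it lies 654 bases inside the gene, and for Kcnj12 43240 bases inside, so that the Kcnj12 window is an internal start of the GENCODE gene. Capitals mark matches, on either strand, to 4 sequence motifs: the TATA box TATAAA, the cyclic AMP response element TGACGTCA, the core TGCTGA of Maf factor sites and the forkhead site TGTTTAC.
Kcnj12, chr11:61065554-61065853, plus strand: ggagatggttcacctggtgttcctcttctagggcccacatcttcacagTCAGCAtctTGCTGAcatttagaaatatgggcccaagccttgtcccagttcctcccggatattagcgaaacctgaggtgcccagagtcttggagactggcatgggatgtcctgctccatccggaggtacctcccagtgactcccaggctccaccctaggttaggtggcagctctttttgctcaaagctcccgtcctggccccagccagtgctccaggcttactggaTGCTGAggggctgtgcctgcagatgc
Kcng3, chr17:83631846-83632145, minus strand: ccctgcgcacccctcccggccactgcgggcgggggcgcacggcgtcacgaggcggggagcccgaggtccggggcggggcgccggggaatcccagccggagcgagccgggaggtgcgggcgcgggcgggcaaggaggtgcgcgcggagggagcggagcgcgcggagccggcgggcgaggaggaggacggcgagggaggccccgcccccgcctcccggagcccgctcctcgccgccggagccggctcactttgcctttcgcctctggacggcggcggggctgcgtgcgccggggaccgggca
Kcnj3, chr2:55435720-55436019, plus strand: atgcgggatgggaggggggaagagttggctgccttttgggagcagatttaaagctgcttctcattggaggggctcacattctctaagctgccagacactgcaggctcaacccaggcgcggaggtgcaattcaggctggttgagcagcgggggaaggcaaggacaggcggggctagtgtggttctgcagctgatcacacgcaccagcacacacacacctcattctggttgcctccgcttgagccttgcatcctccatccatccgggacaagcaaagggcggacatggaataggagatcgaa
Kcnc4, chr3:107458849-107459148, minus strand: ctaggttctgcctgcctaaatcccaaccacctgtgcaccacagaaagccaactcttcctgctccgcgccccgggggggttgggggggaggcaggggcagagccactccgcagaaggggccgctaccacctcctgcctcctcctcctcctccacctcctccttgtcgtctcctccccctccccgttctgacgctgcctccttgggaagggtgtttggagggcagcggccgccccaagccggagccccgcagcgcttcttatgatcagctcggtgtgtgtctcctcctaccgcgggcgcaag
The Kcnj12 window held 3 Maf cores, of which the 1 nearest the 5′ end was on the opposite strand, and none of the other motifs. The other 3 windows held none of the 4 motifs, which says only that these letters are not in them. Among 32851 promoter windows of the mouse genome, 19.5% held a Maf core, 13.6% a TATA box, 1.79% a cyclic AMP element and 3.65% a forkhead site. The windows differed in base composition: Kcng3 had 49 CpG pairs and 82.0% G and C, Kcnc4 17 and 66.7%, Kcnj3 10 and 57.7%, and Kcnj12 4 and 57.0%, beside a median of 7 CpG pairs over all windows. Fewer CpG pairs than in the Kcng3 window were found in 99.0% of all windows, and fewer than in the Kcnj12 window in 31.4%. These matches and compositions are descriptions of the annotated windows.

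Among the inward rectifiers, 13 were tested in rIAPP against WT, with 5 higher, 2 lower and 6 not passing. That is 53.8% called, beside 26.8% of all genes tested. Kcnj12, a strong inward rectifier of the classical Kir2 type, ranged from 9.31 to 12.9 CPM (median 11.6) in WT, from 4.99 to 11.4 CPM (median 9.02) in hIAPP and from 0.521 to 0.909 CPM (median 0.555) in rIAPP. All rIAPP libraries lay far below every other library. Its rIAPP mean was 17.5-fold below WT (log2 fold change -4.13 ± 0.19, SE, edgeR adjusted p = 3.87e-12). Its relatives Kcnj2 and Kcnj4, of the same Kir2 type, went the other way. Kcnj2 ranged from 1.69 to 2.51 CPM (median 1.81) in WT and from 3.97 to 5.76 CPM (median 4.69) in rIAPP, with no overlap (log2 fold change 1.30 ± 0.14, edgeR adjusted p = 7.25e-07). Kcnj4 ranged from 0.444 to 0.678 CPM (median 0.534) in WT and from 1.49 to 2.09 CPM (median 1.85) in rIAPP, again with no overlap (1.71 ± 0.15, edgeR adjusted p = 3.85e-08). In rIAPP, the RNA of 1 Kir2 gene was therefore lower and that of 2 others higher than in WT. Kcnj14, a further gene of this type, was scarce and did not pass (mean 0.141 CPM in WT and 0.171 CPM in rIAPP).

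The G protein-gated rectifiers also split. Kcnj3, the subunit that others of this type need for full current, ranged from 4.49 to 5.64 CPM (median 5.15) in WT, from 3.81 to 5.56 CPM (median 4.28) in hIAPP and from 24.5 to 35.7 CPM (median 31.3) in rIAPP. The lowest rIAPP library was above the highest of the other 12, and the mean was 5.96-fold above WT (log2 fold change 2.58 ± 0.11, edgeR adjusted p = 1.25e-12). About 31.1% of the Kcnj3 exon bases overlap the gene model Gm26794, and the strand setting of the counting is not given in the sources used here. Kcnj5, a partner of Kcnj3 in the heart, was scarce and fell: it ranged from 0.324 to 0.765 CPM (median 0.581) in WT and from 0.0794 to 0.169 CPM (median 0.112) in rIAPP, with no overlap (-2.19 ± 0.32, edgeR adjusted p = 2.19e-05). Kcnj6, the neuronal and islet member, had a log2 fold change of 0.42 ± 0.14 (edgeR adjusted p = 0.0342), with overlapping ranges (from 3.42 to 6.34 CPM (median 4.07) in WT and from 4.58 to 7.11 CPM (median 5.71) in rIAPP). The Kcnj6 call ended when any 1 of 8 libraries (WT 1, 2, 3, 4 or 6, or rIAPP 1, 2 or 5) was left out (edgeR adjusted p = 0.0537 to 0.0851). Kcnj9, a further gene of this type, was scarce and did not pass in rIAPP against WT (log2 fold change -0.28). Kcnj8, the pore of the ATP-sensitive channel of vascular smooth muscle and pericytes, ranged from 2.12 to 2.66 CPM (median 2.45) in WT and from 5.62 to 9.53 CPM (median 8.02) in rIAPP, with no overlap (1.69 ± 0.14, edgeR adjusted p = 1.49e-08). Abcc9, which encodes the regulatory subunit of that channel, did not pass (log2 fold change 0.23 ± 0.11, edgeR adjusted p = 0.129). The mesenchymal and endothelial markers given above were higher in the same libraries, and their part in the Kcnj8 level was not tested.

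**Figure D2:**
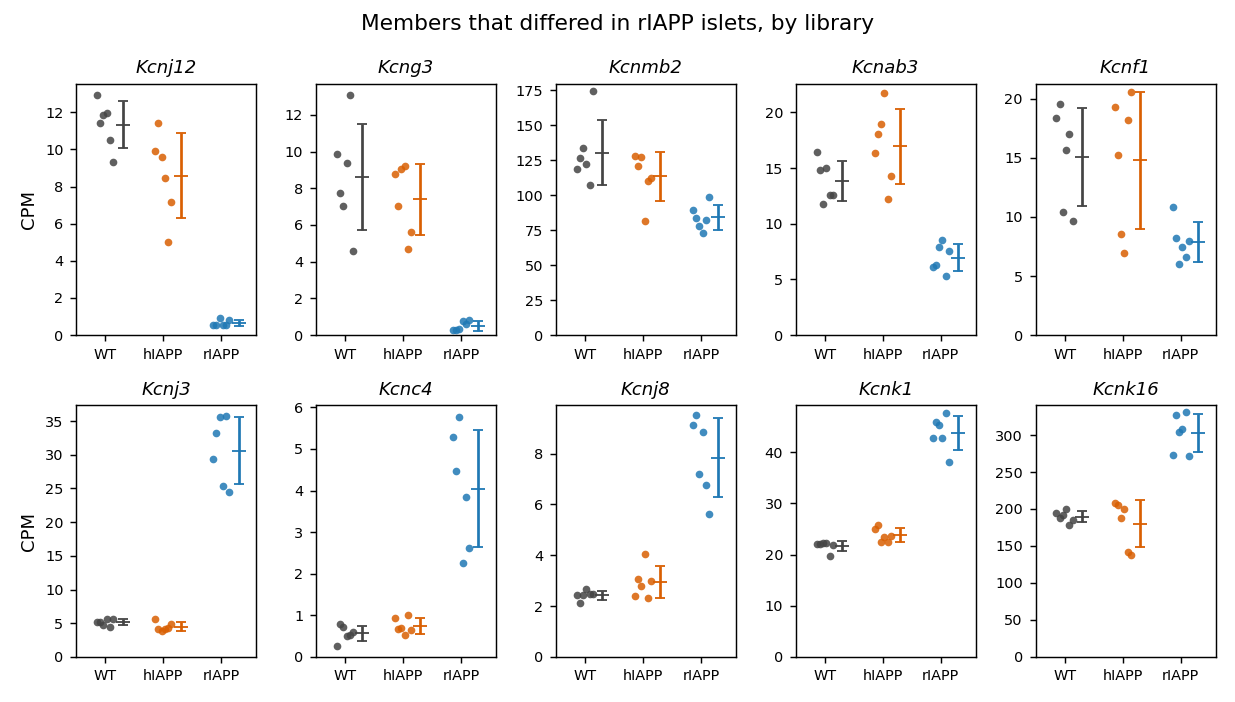
CPM in each library (points) with the mean ± SD (n = 6) beside them for 10 members, on linear axes that start at 0. Upper row, members lower in rIAPP, with Kcnj12 at 0.521 to 0.909 CPM against 9.31 to 12.9 in WT; lower row, members higher in rIAPP, with Kcnj3 at 24.5 to 35.7 CPM against 4.49 to 5.64 in WT.

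Of the 10 tandem-pore channels tested in rIAPP against WT, 8 were higher, 1 was lower and 1 did not pass. That is 90.0% called, beside 26.8% of all genes tested. Their median log2 fold change was 0.73, beside -0.015 over all genes. The family is small, and its count is a description. Kcnk6, higher by 0.49, lost its call with the acinar score (edgeR adjusted p = 0.550). Kcnk16 ranged from 178 to 201 CPM (median 189.7) in WT and from 272 to 330.5 CPM (median 306) in rIAPP, without overlap (log2 fold change 0.67 ± 0.09, edgeR adjusted p = 1.62e-05). It was the most abundant member per kb in all 3 genotypes. Kcnk1 ranged from 19.6 to 22.3 CPM (median 22.02) in WT and from 38.1 to 47.7 CPM (median 44.1) in rIAPP, also without overlap and about 2-fold higher (1.02 ± 0.06, edgeR adjusted p = 3.89e-11). Kcnk5, another alkaline-activated channel and a gene less than 100 kb from Kcnk16 on chromosome 14, ranged from 1.11 to 2.10 CPM (median 1.43) in WT and from 2.23 to 3.85 CPM (median 3.0) in rIAPP (1.01 ± 0.18, edgeR adjusted p = 0.000226). Kcnk13, a halothane-inhibited channel also known from microglia, ranged from 0.965 to 1.83 CPM (median 1.33) in WT and from 2.49 to 4.16 CPM (median 3.81) in rIAPP (1.34 ± 0.18, edgeR adjusted p = 7.22e-06). For both genes all rIAPP libraries lay above all WT libraries. Of the 13 macrophage markers, 7 were lower in rIAPP and 1 was higher, and their part in the Kcnk13 level was not tested. Kcnk9, an acid-sensitive leak channel, was the exception and was lower, at 0.322 to 0.942 CPM (median 0.437) against 0.837 to 2.04 CPM (median 1.35) in WT (-1.38 ± 0.32, edgeR adjusted p = 0.00289). Its ranges overlapped, and with the acinar score as a covariate its value was -0.58 (edgeR adjusted p = 0.563). Kcnk3, its close relative, did not pass (-0.10 ± 0.09, edgeR adjusted p = 0.477).

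Of the 31 voltage-gated pore subunits tested, 7 were higher, 8 lower and 16 did not pass in rIAPP against WT. The share called was 48.4%, beside 26.8% of all genes tested. Kcnb2, a delayed rectifier, did not pass, with a log2 fold change of -0.20 ± 0.10 and a 95% interval of -0.42 to 0.01 (edgeR adjusted p = 0.164). Among silent subunits, which join delayed rectifiers, Kcng3, Kcnf1 and Kcns3 were called, and Kcng4 did not pass (1.28 ± 0.59, edgeR adjusted p = 0.121). Kcng3 ranged from 4.56 to 13.1 CPM (median 8.56) in WT, from 4.67 to 9.21 CPM (median 7.90) in hIAPP and from 0.259 to 0.835 CPM (median 0.459) in rIAPP. Every rIAPP library lay below all 12 others, and the mean was 17.0-fold below WT (log2 fold change -4.08 ± 0.31, edgeR adjusted p = 4.77e-09). Kcnf1, another silent subunit, ranged from 9.68 to 19.5 CPM (median 16.4) in WT and from 6.00 to 10.9 CPM (median 7.72) in rIAPP, with overlap (-0.94 ± 0.24, edgeR adjusted p = 0.00571). With the acinar score as a covariate the Kcnf1 call ended (-1.10, edgeR adjusted p = 0.0872). Kcns3, a silent subunit known from oxygen-sensitive smooth muscle, was higher, at 0.739 to 1.15 CPM (median 1.04) against 0.399 to 0.861 CPM (median 0.577) in WT (0.77 ± 0.22, edgeR adjusted p = 0.0115). That call too ended with the acinar score (0.60, edgeR adjusted p = 0.344).

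Among the fast-repolarising Kv3-type genes, Kcnc4 and Kcnc2 were called higher. Kcnc4 ranged from 0.268 to 0.797 CPM (median 0.569) in WT, from 0.518 to 1.02 CPM (median 0.687) in hIAPP and from 2.25 to 5.77 CPM (median 4.16) in rIAPP. The lowest rIAPP library was more than double the highest of the others, although the rIAPP libraries were spread widely (log2 fold change 2.83 ± 0.27, edgeR adjusted p = 8.21e-08). Kcnc2 ranged from 1.79 to 2.80 CPM (median 2.35) in WT and from 4.47 to 6.70 CPM (median 5.21) in rIAPP, without overlap (1.16 ± 0.12, edgeR adjusted p = 2.14e-07). Kcnc1 was lower in value but did not pass (-0.66 ± 0.24, edgeR adjusted p = 0.0503). It passed when WT 1, WT 6, hIAPP 5 or rIAPP 1 was left out (edgeR adjusted p = 0.00498 to 0.0480), and with the acinar score (-1.21, edgeR adjusted p = 0.0415). Kcnc1 also passed as lower with DESeq2, with limma, with mouse number as a covariate, and without both hIAPP 5 and hIAPP 6.

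Kcnq1, the slow cardiac and epithelial channel whose locus is linked to type 2 diabetes risk in humans, ranged from 4.79 to 6.01 CPM (median 5.30) in WT and from 3.04 to 4.30 CPM (median 3.82) in rIAPP, without overlap (-0.51 ± 0.10, edgeR adjusted p = 0.000574). Other gene models overlap 3.0% of its exon bases, and only reads there could be shared. Kcnh6 was higher at 36.9 to 52.0 CPM (median 49.9) against 18.9 to 29.6 CPM (median 26.0) in WT (0.91 ± 0.10, edgeR adjusted p = 7.25e-07), and Kcnh7, the third ERG gene, was higher from a low level (1.49 ± 0.24, edgeR adjusted p = 8.72e-05; 0.92 and 0.113 with the acinar score). Kcnh2, the ERG gene with the highest level in WT per kb, did not pass (0.11 ± 0.07, 95% interval -0.03 to 0.24, edgeR adjusted p = 0.277). Kcnh1, of the related EAG type, was lower (-0.53 ± 0.16, edgeR adjusted p = 0.0151), a call that ended with the acinar score (-0.23, edgeR adjusted p = 0.642). Kcna6, a Kv1-type gene with 39.6% of its exon bases shared with the gene model Gm26673, had a value of 0.33 ± 0.12 (edgeR adjusted p = 0.0465), and this call ended in 10 of the 18 runs that left out 1 library (edgeR adjusted p = 0.0528 to 0.115).

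**Figure D3:**
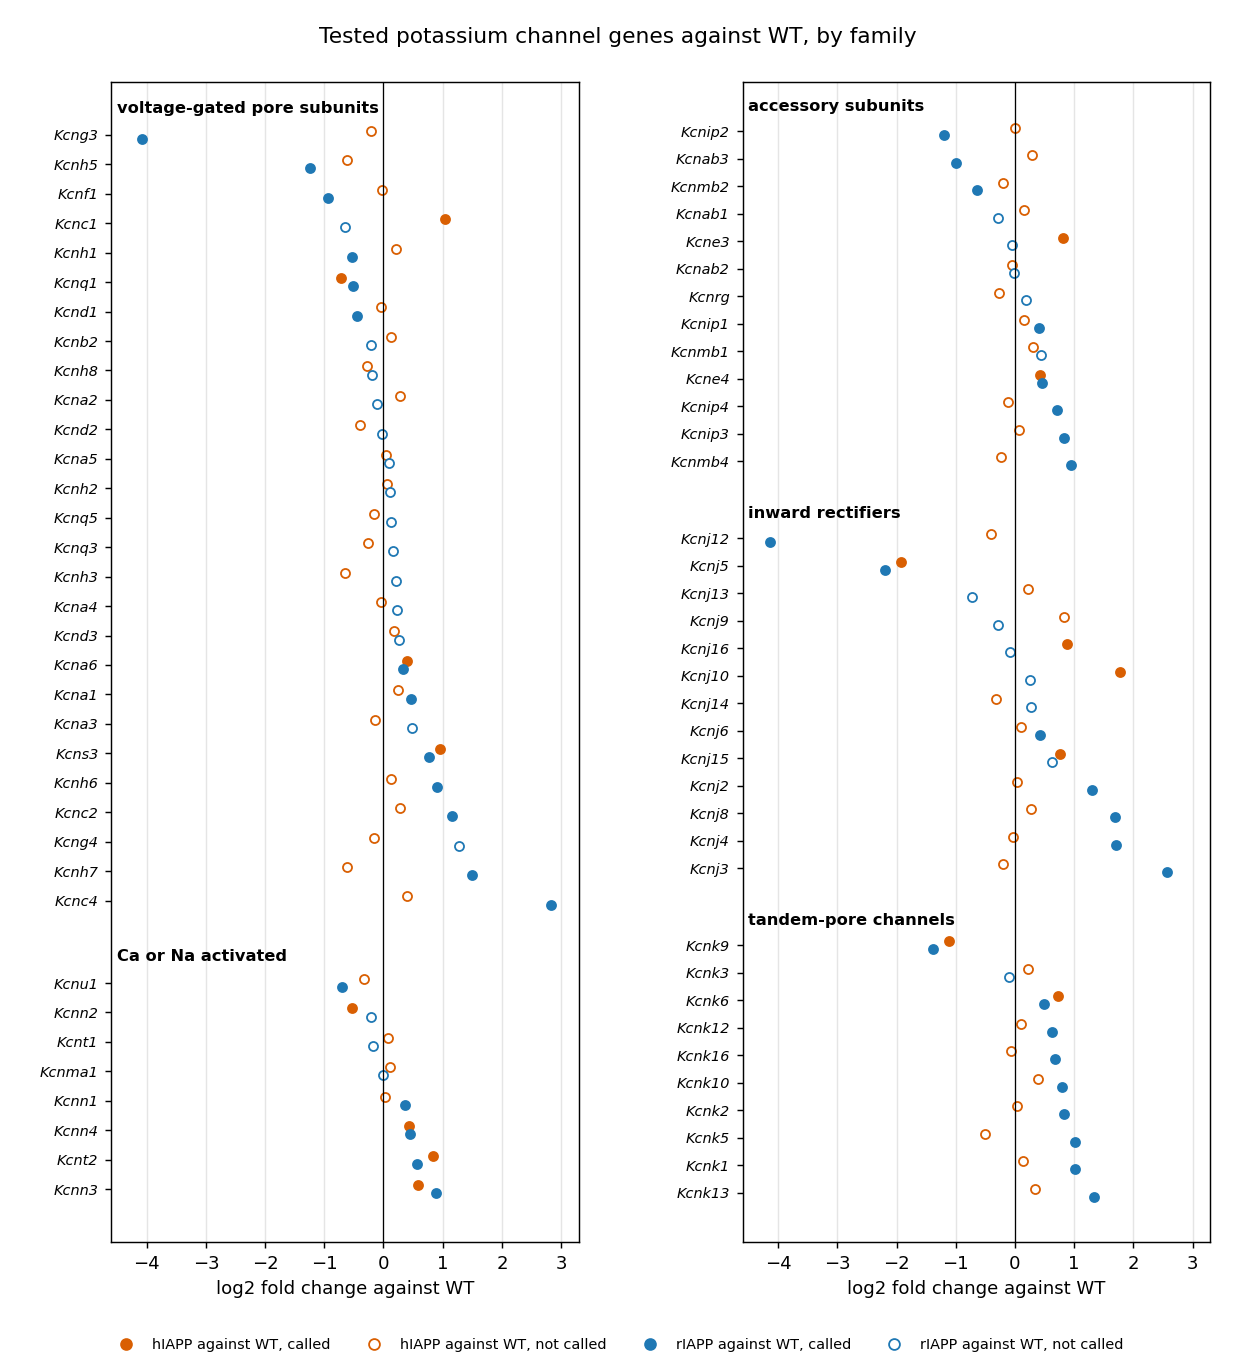
Log2 fold changes against WT of tested members, grouped by family and ordered by the rIAPP value; orange is hIAPP and blue is rIAPP, filled circles are called at an edgeR adjusted p under 0.05 and open circles are not. The rIAPP points spread from -4.13 (Kcnj12) to 2.83 (Kcnc4) and the hIAPP points from -1.93 (Kcnj5) to 1.77 (Kcnj10); both comparisons use the same WT libraries.

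Accessory subunits differed in both directions, with 5 of 13 tested higher, 3 lower and 5 not passing in rIAPP against WT. The share called was 61.5%, beside 26.8% of all genes tested. Kcnmb2 ranged from 107 to 175 CPM (median 124) in WT and from 73.1 to 98.5 CPM (median 82.9) in rIAPP, all below WT (-0.63 ± 0.11, edgeR adjusted p = 0.000234), while its pore partner Kcnma1 did not pass (-0.01 ± 0.05, 95% interval -0.12 to 0.10, edgeR adjusted p = 0.924). Kcnmb4, the subunit best known from neurons, was scarce and higher (0.236 ± 0.0497 CPM in WT, 0.457 ± 0.0907 in rIAPP, log2 fold change 0.95 ± 0.27, edgeR adjusted p = 0.0118). Antisense transcripts overlap 31.5% of its exon bases, and with the acinar score its call ended at a log2 fold change of 0.90 (edgeR adjusted p = 0.250). Kcnab3, a cytoplasmic subunit related to oxidoreductases, ranged from 11.8 to 16.4 CPM (median 13.7) in WT and from 5.31 to 8.50 CPM (median 6.93) in rIAPP, without overlap (-0.995 ± 0.13, edgeR adjusted p = 8.49e-06). The calcium-sensing KChIP subunits, partners of A-type channels, split as well. Kcnip1 (0.41 ± 0.08, edgeR adjusted p = 0.000581), Kcnip3 (0.84 ± 0.14, edgeR adjusted p = 0.000131) and Kcnip4 (0.71 ± 0.12, edgeR adjusted p = 9.60e-05) were higher, and the rIAPP libraries lay above all WT libraries for all 3. Kcnip2 was lower, at 0.609 to 1.798 CPM (median 0.999) against 1.04 to 3.85 CPM (median 2.38) in WT (-1.20 ± 0.31, edgeR adjusted p = 0.00638). All 4 KChIP calls ended with the acinar score, with log2 fold changes of 0.24, 0.46, 0.57 and -1.38 for Kcnip1, Kcnip3, Kcnip4 and Kcnip2 (edgeR adjusted p = 0.238, 0.186, 0.0571 and 0.0846). Of the A-type pore genes these subunits join, Kcnd1 was lower (-0.44 ± 0.15, edgeR adjusted p = 0.0401; -0.46 and 0.314 with the acinar score), and Kcnd2 (-0.03 ± 0.17, edgeR adjusted p = 0.937) and Kcnd3 (0.27 ± 0.18, edgeR adjusted p = 0.316) did not pass. Kcne4, a membrane-spanning regulator of several voltage-gated channels, was higher by 0.45 ± 0.13 (edgeR adjusted p = 0.0136; 0.40 and 0.282 with the acinar score).

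Calcium-activated and sodium-activated genes were higher in 4 of 8 cases and lower in 1 (62.5% called, beside 26.8% of all genes tested). Kcnn3, a small-conductance channel that shapes the pause between bursts in beta cells, ranged from 15.1 to 34.9 CPM (median 23.0) in WT and from 37.5 to 53.9 CPM (median 42.1) in rIAPP, where every library lay above WT (0.89 ± 0.17, edgeR adjusted p = 0.000505). It was the only 1 of the 4 higher calls that held with the acinar score (1.11, edgeR adjusted p = 0.00900). Kcnn1, another small-conductance gene, was higher by 0.36 ± 0.10, Kcnn4, the intermediate-conductance channel, by 0.44 ± 0.11, and the sodium-activated Kcnt2 by 0.56 ± 0.18 (edgeR adjusted p = 0.0127, 0.00619 and 0.0272). With the acinar score their values were 0.45, 0.43 and 0.38 (edgeR adjusted p = 0.0997, 0.161 and 0.504). The Kcnt2 call also ended without WT 1, WT 2, WT 4 or rIAPP 3 (edgeR adjusted p = 0.0571 to 0.0746). Kcnu1, the pH-gated relative known from sperm, ranged from 5.04 to 6.19 CPM (median 5.57) in WT and from 2.85 to 3.98 CPM (median 3.49) in rIAPP, without overlap (-0.69 ± 0.12, edgeR adjusted p = 0.000149; -0.40 and 0.183 with the acinar score).

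In hIAPP against WT, which asked how the line with the human peptide differs from WT, fewer members were called. Of the 75 tested, 16 were called, 12 higher and 4 lower, which is 21.3% beside 15.8% of all genes tested (8.31% higher and 7.53% lower). The share is near that background and is no result about the members as a group. Their median log2 fold change was 0.07, beside -0.01 over all genes. With the acinar score as a covariate 4 were called: Kcnj10, Kcnj5, Kcnn2 and Kcnq1. These 4 were also called in every other alternative that tested them; Kcnj10 and Kcnj5 were not tested under the filter at a mean of 1 CPM. The acinar score was 5.35 to 7.98 in hIAPP and 4.21 to 6.05 in WT, so that score and genotype overlapped little here too. Without hIAPP 5 and hIAPP 6, 11 members were called, 6 higher and 5 lower.

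Kcnj10, the inward rectifier by which glia take up potassium, ranged from 0.295 to 0.579 CPM (median 0.386) in WT, from 1.02 to 2.33 CPM (median 1.18) in hIAPP and from 0.404 to 0.606 CPM (median 0.497) in rIAPP. All hIAPP libraries lay above the 12 others, and hIAPP 5 was the highest (log2 fold change 1.77 ± 0.22, edgeR adjusted p = 1.91e-05). Without hIAPP 5 and hIAPP 6 the value was 1.44 (edgeR adjusted p = 0.000103). Kcnj16, which forms mixed channels with the Kcnj10 product, ranged from 0.222 to 0.518 CPM (median 0.334) in WT and from 0.511 to 0.837 CPM (median 0.605) in hIAPP, with ranges that met only at WT's highest library (0.87 ± 0.22, edgeR adjusted p = 0.0117). With the acinar score the Kcnj16 value was 1.01 and did not pass (edgeR adjusted p = 0.0853). Kcnj15, a further rectifier of this type, was higher by 0.76 ± 0.24 (edgeR adjusted p = 0.0365), and its call ended when any 1 of 8 libraries was left out, WT 1, 3, 4, 5 or 6 or hIAPP 2, 5 or 6 (edgeR adjusted p = 0.0529 to 0.0913). The glial markers summed to 24.9 to 30.5 CPM in WT, 31.4 to 46.4 in hIAPP and 30.7 to 37.1 in rIAPP, and their part in the Kcnj10 level was not tested. In rIAPP, Kcnj10 had a log2 fold change of 0.26 ± 0.22 against WT (edgeR adjusted p = 0.446).

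Kcnq1 ranged from 2.88 to 3.72 CPM (median 3.23) in hIAPP, below all WT libraries, which lay at 4.79 to 6.01 CPM (median 5.30) (log2 fold change -0.72 ± 0.10, edgeR adjusted p = 6.31e-05). Kcnj5 ranged from 0.0763 to 0.214 CPM (median 0.130) in hIAPP, below all WT libraries, which themselves fell into a lower and a higher trio (-1.93 ± 0.31, edgeR adjusted p = 0.000300). Kcnn2, a small-conductance calcium-activated channel, ranged from 3.82 to 5.77 CPM (median 5.16) in WT and from 2.65 to 3.84 CPM (median 3.47) in hIAPP, with ranges that touched (-0.54 ± 0.12, edgeR adjusted p = 0.00400). Kcnk9 was lower by value as in rIAPP, at 0.332 to 1.17 CPM (median 0.548) (-1.12 ± 0.32, edgeR adjusted p = 0.0221). The Kcnk9 call ended without hIAPP 6 (log2 fold change -1.01, edgeR adjusted p = 0.0551), and without both hIAPP 5 and hIAPP 6 the value was -0.95 (edgeR adjusted p = 0.123).

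The remaining higher calls in hIAPP were small or uneven. Kcnk6, a tandem-pore channel of lysosomes and vessels, ranged from 2.22 to 3.24 CPM (median 2.599) in WT and from 3.18 to 5.68 CPM (median 4.14) in hIAPP (0.73 ± 0.12, edgeR adjusted p = 0.000443; 0.51 and 0.0814 with the acinar score). Kcnc1, a Kv3-type gene, ranged from 0.382 to 0.598 CPM (median 0.500) in WT and from 0.811 to 1.56 CPM (median 0.921) in hIAPP, without overlap and highest in hIAPP 5 (1.04 ± 0.24, edgeR adjusted p = 0.00553). It did not pass without hIAPP 5 and hIAPP 6 (0.82, edgeR adjusted p = 0.0507) or with the acinar score (0.63, edgeR adjusted p = 0.295). Kcns3 and Kcnt2 were higher by 0.96 ± 0.22 and 0.84 ± 0.18 (edgeR adjusted p = 0.00533 and 0.00383), and both calls ended with the acinar score (0.82 and 0.70, edgeR adjusted p = 0.162 and 0.150). Kcnn4, known from red cells, lymphocytes and macrophages, was higher by 0.42 ± 0.11 (edgeR adjusted p = 0.0160), and its value without hIAPP 5 and hIAPP 6 was 0.39 (edgeR adjusted p = 0.0734). In hIAPP, 12 of 13 macrophage and 3 of 6 tested lymphocyte markers were higher and 3 of 5 tested erythroid markers were lower, and their part was not tested. In rIAPP, Kcnn4 had a value of 0.44 ± 0.11 against the same WT libraries.

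Kcnn3 was higher by 0.59 ± 0.17 in hIAPP (edgeR adjusted p = 0.0240), and the call ended without WT 1, WT 2, WT 6, hIAPP 1 or hIAPP 2 (edgeR adjusted p = 0.0501 to 0.0577). Kcne3, an accessory subunit of epithelial channels, had 1.78 CPM in hIAPP 5 and 0.479 to 1.10 in the other hIAPP libraries, against 0.375 to 0.635 CPM (median 0.523) in WT (0.81 ± 0.26, edgeR adjusted p = 0.0377). Its call ended without any 1 of 8 libraries, WT 1, 2, 3, 4 or 6 or hIAPP 2, 5 or 6 (edgeR adjusted p = 0.0502 to 0.130), and without hIAPP 5 and hIAPP 6 its value was 0.33. Kcne4 was higher by 0.42 ± 0.13 (edgeR adjusted p = 0.0362), lost without WT 1, 4 or 6 or hIAPP 4, 5 or 6 (edgeR adjusted p = 0.0551 to 0.0857). Kcna6 was higher by 0.39 ± 0.12 (edgeR adjusted p = 0.0323), lost without WT 1, 2, 4 or 6 or hIAPP 2, 5 or 6 (edgeR adjusted p = 0.0546 to 0.0843).

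**Figure D4:**
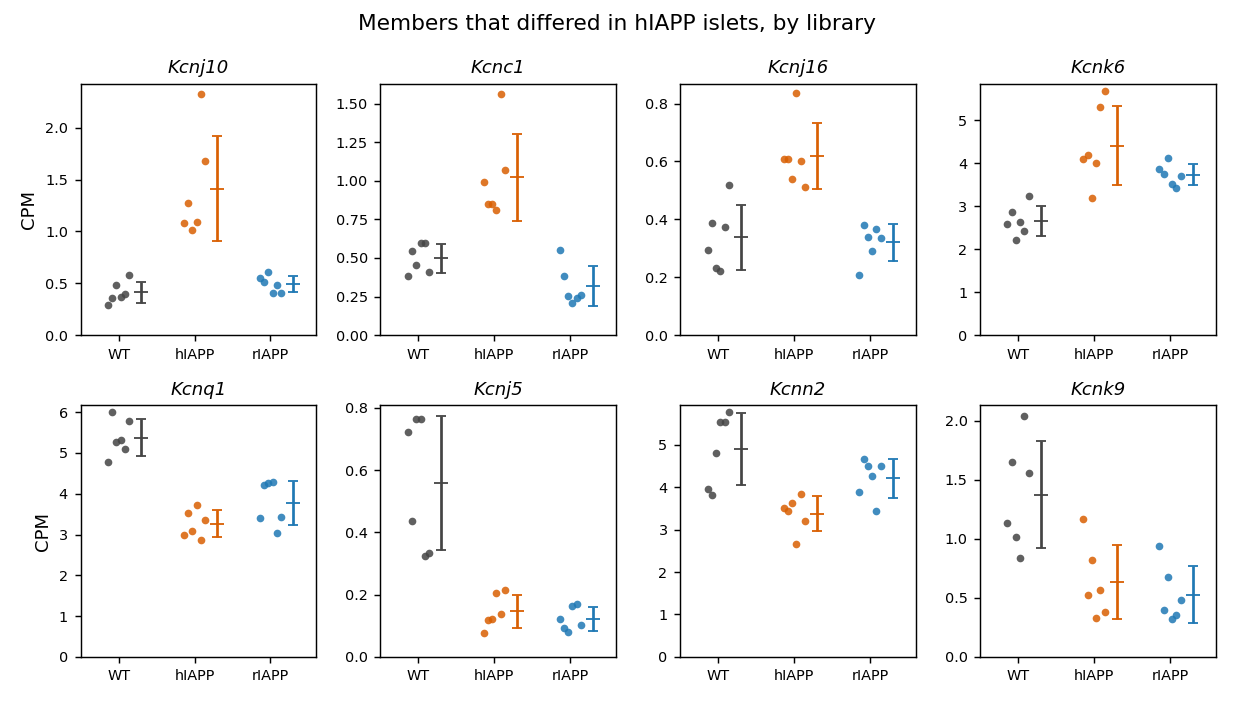
CPM in each library (points) with the mean ± SD (n = 6) beside them for 8 members called in hIAPP against WT, on linear axes that start at 0. Upper row, members higher in hIAPP, with Kcnj10 at 1.02 to 2.33 CPM against 0.295 to 0.579 in WT; lower row, members lower in hIAPP, where the rIAPP libraries of Kcnq1 and Kcnj5 also lay below WT.

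Several abundant members did not pass in hIAPP against WT. Kcnma1 had a log2 fold change of 0.11 ± 0.05 with a 95% interval of 0.00 to 0.23, and Kcnh2 one of 0.05 ± 0.07 (-0.09 to 0.19). Kcnk16 averaged 180.3 ± 32.2 CPM in hIAPP and 189.7 ± 7.87 in WT. Its level was 141.4 and 138.1 CPM in hIAPP 5 and hIAPP 6 and 188 to 208 in the other 4 hIAPP libraries (log2 fold change -0.07 ± 0.09, edgeR adjusted p = 0.680). Kcnj12 was also lowest in hIAPP 5 and hIAPP 6, at 4.99 and 7.18 CPM against 8.47 to 11.4 in the others (-0.40 ± 0.16, edgeR adjusted p = 0.106), and of the 18 runs that left out 1 library it passed in the 1 without hIAPP 2 (-0.50, edgeR adjusted p = 0.0493).

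The direct comparison of hIAPP with rIAPP asked how the lines with the human and the rodent peptide differ. Of the 75 members, 40 were called, 19 higher and 21 lower in hIAPP, which is 53.3% beside 27.6% of all genes (13.5% higher and 14.1% lower). The members' median was -0.05, beside 0 over all genes. This comparison shares the rIAPP libraries with the first, so the members' values in the 2 are not independent. Kcng3 and Kcnj12 were the members with the most positive log2 fold changes, 3.86 ± 0.31 and 3.73 ± 0.19 (edgeR adjusted p = 1.01e-08 and 1.56e-11). Kcnj3 and Kcnc4 were lower by value, with log2 fold changes of -2.77 ± 0.11 and -2.43 ± 0.26 (edgeR adjusted p = 3.20e-13 and 5.33e-07). Kcnk16, Kcnk1 and Kcnk5 were lower too, with values of -0.75 ± 0.09, -0.88 ± 0.06 and -1.51 ± 0.18 (edgeR adjusted p = 4.81e-06, 3.16e-10 and 2.62e-06). Of the 20 acinar markers 1 differed between the lines, lower in hIAPP, and with the acinar score as a covariate 38 members were called. Of the 10 beta cell markers, 9 were higher in hIAPP than in rIAPP, 12 of 13 markers of macrophages were also higher and 1 was lower, and all 12 endothelial markers were lower. Their part in these differences was not tested.

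Kcnj10 was higher than in rIAPP by 1.51 ± 0.22, Kcnc1 by 1.69 ± 0.24 and Kcnj16 by 0.95 ± 0.23 (edgeR adjusted p = 2.35e-05, 2.25e-05 and 0.00326). Kcne3 was higher by 0.86 ± 0.26 (edgeR adjusted p = 0.0168), lost without hIAPP 5 (log2 fold change 0.55, edgeR adjusted p = 0.0628). For Kcnk3, a leak channel of endocrine cells, hIAPP lay between 11.4 and 12.5 CPM and rIAPP between 7.69 and 11.5 (0.31 ± 0.09, edgeR adjusted p = 0.0102). For Kcnq1 and Kcnj5, lower than WT in both lines, the difference between the lines did not pass: the values were -0.21 ± 0.10 (95% interval -0.42 to -0.002) and 0.26 ± 0.32 (-0.41 to 0.93).

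Some channel genes are neighbours in the genome, and neighbours did not always move alike. On chromosome 14, Kcnk16 and Kcnk5, 79567 bases apart, were both higher in rIAPP than in WT, by 0.67 and 1.01. On chromosome 11, Kcnj2 and Kcnj16, 38196 bases apart, parted: Kcnj2 had 1.30 in rIAPP and 0.03 in hIAPP, and Kcnj16 -0.08 and 0.87, as log2 fold changes against WT. Kcnj10 and Kcnj9, a G protein-gated rectifier gene 11892 bases away on chromosome 1, had 1.77 and 0.82 in hIAPP against WT, where Kcnj9 did not pass (edgeR adjusted p = 0.0678). These pairs and Kcnj9 were singled out after their values were seen, and other tested pairs less than 100 kb apart are not described here.

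The other genes that handle potassium or assist its channels came from lists of 11 channel partners, 14 subunits and regulators of the sodium-potassium pump and 19 other transporters. Over all genes tested against WT, 14.1% were called higher and 12.6% lower in rIAPP, and 8.31% higher and 7.53% lower in hIAPP. Beside these shares, the counts of the short lists are descriptions. Of 9 channel partners tested, none was higher and 5 were lower in rIAPP against WT, and 2 were higher and 1 lower in hIAPP. Their median log2 fold change in rIAPP was -0.47, beside -0.015 over all genes. The partners lower in rIAPP were Abcc8, the regulatory subunit of the beta cell ATP-sensitive channel (-1.34 ± 0.09), Lrrc38 and Lrrc55, which shift the gating of Kcnma1 channels (-1.90 ± 0.32 and -1.59 ± 0.19), Dpp10, a partner of A-type channels (-0.65 ± 0.16), and Vapb, a contact-site protein (-0.47 ± 0.06), with edgeR adjusted p = 5.41e-10, 0.000124, 2.08e-06, 0.00488 and 1.48e-06. Of 12 pump genes tested, 5 were higher and 2 lower in rIAPP, and 3 higher and 1 lower in hIAPP, among them Atp1b1, a beta subunit of the pump, higher in rIAPP by 0.43 ± 0.06 (edgeR adjusted p = 1.46e-05). Of 17 other transporters tested, 3 were higher and 3 lower in rIAPP and 4 were higher in hIAPP. Slc24a3, a potassium-dependent sodium-calcium exchanger, was higher in rIAPP by 2.33 ± 0.14 (edgeR adjusted p = 2.71e-10). Slc12a7, a potassium-chloride exporter, went apart in the lines: 0.39 ± 0.07 in hIAPP and -0.72 ± 0.07 in rIAPP against WT (edgeR adjusted p = 0.00117 and 3.07e-07), and 1.11 ± 0.07 between the lines (edgeR adjusted p = 7.21e-10). The partners, pump genes and transporters named in this paragraph were picked after their values were seen.

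Of the members, 19 were called in none of the 3 comparisons, among them Kcna3, Kcna4, Kcna5, Kcnab2, Kcnd2, Kcnd3, Kcng4, Kcnh2, Kcnh8, Kcnj13, Kcnj14, Kcnma1, Kcnmb1, Kcnq3, Kcnq5, Kcnrg and Kcnt1. For Kcnj13, 49.1% of exon bases overlap Gigyf2, so that its counts may hold reads of that gene. The 20 members under the filter were Kcna7, Kcna10, Kcne1, Kcne1l, Kcne2, Kcng1, Kcng2, Kcnh4, Kcnj1, Kcnk4, Kcnk7, Kcnk15, Kcnk18, Kcnmb3, Kcns1, Kcns2, Kcnv1, Kcnv2 and both antisense transcripts. Kcne1, the classic partner of Kcnq1, had 4 counts over all 18 libraries, Kcng2, a silent subunit, 49 and Kcnv1, also silent, 43, and all 3 were left out of the main test by the filter.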

How the data were processed

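Total RNA depleted of ribosomal RNA was sequenced from islets of 18 mice, 6 per genotype. Per the submitters' processing notes the tools were STAR and HTSeq and the build GRCm38 (mm10). The annotation, the strand setting and the step behind fractional values were each not given in the sources used here. The authors deposited estimated counts per gene, of which 39.2% of the values above 0 were not whole, and these were rounded. They were tested with edgeR 4.0.16 in R 4.3.3 (quasi-likelihood, TMM factors, filterByExpr by genotype), with all 18 libraries in 1 fit, 20244 genes tested and Benjamini-Hochberg adjustment over all of them. A call is an adjusted p under 0.05. CPM used TMM library sizes, and exon lengths, the union of all annotated exons of a gene, came from GENCODE M21. Fold changes carry the standard error, and means the SD over 6 mice. The edgeR fit was also run on counts simulated with its own trended spread, for the comparison of hIAPP with WT alone. Those counts hold no differences in cell content between libraries. The outcome is not given here and no call rests on it.

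The acinar score, the mean log2 CPM of 20 acinar markers, served as a covariate in 1 alternative. Others used DESeq2 1.42.0, limma 3.58.1, other scalings, filters or subsets of libraries. Acinar scores did not overlap between WT and rIAPP, so that this covariate was confounded with genotype there. Shares over all genes are given for the main fit only. No 2 libraries of a genotype agreed within counting noise (45 pairs). Named members were, in each comparison, the 15 called with the smallest p, the 15 with the highest WT level per kb, a textbook list of islet channels, and the extreme called members of each family. The members, lists, motifs and tests were chosen with earlier results of these data known. Members named beyond that rule were chosen after their values were seen. Some members and other genes that were tested and counted are not reported here by name.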

Additional observations from a re-analysis of the deposited data

Results flagged for a closer look

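In 8 of 153 sets of 6 libraries (5.23%), 1 library lay farther from the rest than Dixon's limit for 6 values (a gap of 0.625 of the range), where chance gives about 1 in 20. Among hIAPP libraries, Kcnc1 was at 1.56 CPM in hIAPP 5 and 0.811 to 1.07 in the others, Kcnj16 at 0.837 CPM in hIAPP 4 and 0.511 to 0.61 in the others, and Kcnmb4 at 0.381 CPM in hIAPP 2 and 0.102 to 0.206 in the others. Among rIAPP libraries, Kcnc2 was at 6.7 CPM in rIAPP 5 and 4.47 to 5.27 in the others. The library rIAPP 6 was lowest for Kcnh6 (36.9 CPM, others 47.7 to 52.0) and for Kcnn1 (3.89 CPM, others 4.83 to 5.05). The library WT 5 was highest for Kcnj6 (6.34 CPM, others 3.42 to 4.42) and lowest for Kcnk1 (19.6 CPM, others 21.8 to 22.3).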

How the results depend on the processing

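In hIAPP against WT, 16 members were called, 9 with a filter at a mean of 1 CPM (53 members tested) and 4 with the acinar score as a covariate. In rIAPP against WT, 44 were called, and 21 with the acinar score, of which 20 were also called without it. Leaving out 1 library gave 11 to 20 calls in hIAPP against WT, 40 to 45 in rIAPP against WT and 37 to 42 in hIAPP against rIAPP. The cause of these changes was not tested. Every other alternative kept the 3 counts within 1.5 times, and no call changed sign. Scaling by library totals alone moved the median of all genes by 0.1157 in hIAPP and 0.1179 in rIAPP (log2, against WT), and split the hIAPP calls as 20 higher and 4 lower. Without hIAPP 5 and hIAPP 6 the calls in hIAPP were 6 higher and 5 lower. Of the named members called, 4 of 16, 19 of 37 and 26 of 33 were called in every alternative that tested them, in the comparisons of hIAPP with WT, rIAPP with WT and hIAPP with rIAPP; members under a mean of 1 CPM were not tested with that filter. No paired analysis was possible because mouse numbers are not shared between genotypes.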
